A study of Mus musculus with 32 samples.

Results

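The genes described here belong to families of amino acid transporters and were measured in the mouse uterus. They were chosen by family name, and not every member has a settled amino acid substrate. They are the genes of the solute carrier families SLC1, SLC3, SLC7, SLC36, SLC38 and SLC43, taken from probes annotated to exactly 1 gene symbol of these families, with Slc7a11 left out. The array carried 40 such genes on 72 probes, out of 19087 gene symbols and 45018 probes. Probes had to exceed the 30th percentile of their own array on 4 or more of the 32 arrays to be kept. By this filter 39 of the 40 genes were tested, and Slc7a13, a light chain gene known from kidney, was not kept. Slc38a6 was not analysed here.

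Uteri of female CD-1 mice were taken on postnatal day 5 and their RNA was hybridised to single-colour Agilent arrays, 4 arrays for each of 8 groups. The Esr1 line, named for the gene of estrogen receptor alpha, gave 4 groups: wild type (WT) and conditional knockout (cKO), each with vehicle and with the synthetic estrogen diethylstilbestrol (DES). The lines named for the forkhead transcription factor genes Foxa2 and Foxo1 gave a WT and a cKO group each, all treated with DES, and vehicle groups of these lines were not analysed here. Neither the DES dose nor the Cre driver of the deletions is stated in the labels. The design text calls the 4 arrays of a group biological replicates. Whole uteri hold epithelium, stroma, muscle, vessels and blood cells, so a level here is an average over these cells.

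The targeted genes checked the labels. Esr1 was lower in cKO than in WT uteri by 1.96 on the log2 scale after DES (adjusted p = 0.000391), whereas after vehicle the fitted difference was -0.74 and was not called (adjusted p = 0.33). Foxa2 fell by 2.99 in its own line (adjusted p = 4.47e-05), and Foxo1 fell by 2.64 in its own line (adjusted p = 1.045e-09). None of 9 uterine markers was under the 30th percentile throughout a group. The array 75th percentiles ran from 697 to 1787 intensity units, apart from 551 for Esr1 WT vehicle replicate 4 and 9024 for Foxa2 WT DES replicate 1. The correlation of that Foxa2 array with others of its group went down to 0.897 over all genes tested. Several results are also given without both arrays, an alternative chosen after seeing the data.

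Amino acids cross the plasma membrane and the lysosomal membrane through several transporter families. SLC1 members carry glutamate or exchange small neutral amino acids, and SLC38 members carry glutamine and its neighbours with sodium. SLC7 holds cationic amino acid transporters and light chains, and a light chain reaches the cell surface bound to an SLC3 heavy chain, Slc3a2 or Slc3a1. SLC36 members move small amino acids with protons, and SLC43 members are facilitative. In the neonatal uterus, DES makes epithelium and stroma grow and changes how the epithelium differentiates.

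Promoter sequences are shown for 4 genes whose levels moved far with DES, a pair that rose (Slc38a5 and Slc7a7) and a pair that fell (Slc1a3 and Slc7a8). Each run covers the 250 bases before the gene's start, 5′ to 3′ on the gene's strand, from RefSeq on build GRCm38.p6. Where a gene has several starts, the first listed is shown. The positions are chrX:8271131-8271380 (+ strand) for Slc38a5, chr14:54417945-54418194 (- strand) for Slc7a7, chr15:8710808-8711057 (- strand) for Slc1a3 and chr14:54781887-54782136 (- strand) for Slc7a8. Capitals mark the letters searched for, on either strand.
Slc38a5: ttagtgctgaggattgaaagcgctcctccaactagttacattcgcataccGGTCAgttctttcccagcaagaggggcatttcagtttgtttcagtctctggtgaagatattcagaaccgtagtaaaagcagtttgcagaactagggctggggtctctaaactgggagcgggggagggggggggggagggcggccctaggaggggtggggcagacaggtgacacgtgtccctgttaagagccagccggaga
Slc7a7: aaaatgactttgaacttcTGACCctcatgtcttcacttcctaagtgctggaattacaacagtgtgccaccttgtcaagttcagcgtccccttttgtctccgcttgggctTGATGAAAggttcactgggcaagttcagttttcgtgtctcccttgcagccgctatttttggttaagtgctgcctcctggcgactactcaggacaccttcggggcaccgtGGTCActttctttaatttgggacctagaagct
Slc1a3: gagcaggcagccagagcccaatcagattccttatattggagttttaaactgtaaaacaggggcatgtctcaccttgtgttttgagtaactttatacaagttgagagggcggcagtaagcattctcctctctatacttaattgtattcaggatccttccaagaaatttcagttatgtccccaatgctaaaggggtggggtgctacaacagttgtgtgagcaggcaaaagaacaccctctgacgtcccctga
Slc7a8: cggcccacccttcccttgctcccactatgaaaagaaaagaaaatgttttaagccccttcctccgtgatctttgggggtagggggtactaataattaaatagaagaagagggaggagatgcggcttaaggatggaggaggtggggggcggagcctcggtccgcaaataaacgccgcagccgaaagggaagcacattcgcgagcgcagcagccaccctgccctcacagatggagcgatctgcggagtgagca

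The letters searched for were the palindromic estrogen response element, whose arms GGTCA and TGACC stand 3 bases apart; the arm GGTCA alone; TGATGNAA, the core of the element bound by CEBP and ATF factors; and TGTTTAC and TGTTTGC, forkhead motifs. RefSeq windows of 250 bases before to 50 bases after the start were at hand for 29 of the 40 genes, 40 windows in all, some of which overlap. The palindrome was in 0 of the 40 windows, against 0.07% of all 32851 windows. The shorter GGTCA, which also lies inside each palindrome, was in 23 windows, or 57.5%, against 40.5% of all windows. TGATGNAA was in 3 windows (7.5%, against 3.97%), and TGTTTAC and TGTTTGC were in 1 window each (2.5%, against 3.65% and 5.07%). Of the sequences shown, Slc38a5 holds GGTCA once and Slc7a7 holds it on both strands together with TGATGNAA, while Slc1a3 and Slc7a8 hold none of these letters. These are counts of letters in a window, and no binding was measured.

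The values below are log2 intensities minus the array's 75th percentile, so a level of 0 is the 75th percentile and a step of 1 is a doubling. Levels are compared between groups for 1 gene at a time, since probes of different genes differ in brightness. Differences were tested with limma across 17145 genes, with 24 residual degrees of freedom and Benjamini-Hochberg adjustment over all of them, and a gene was called when its adjusted p was under 0.05. The heat map of all 39 genes shows the 8 groups side by side.

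**Figure D1:**
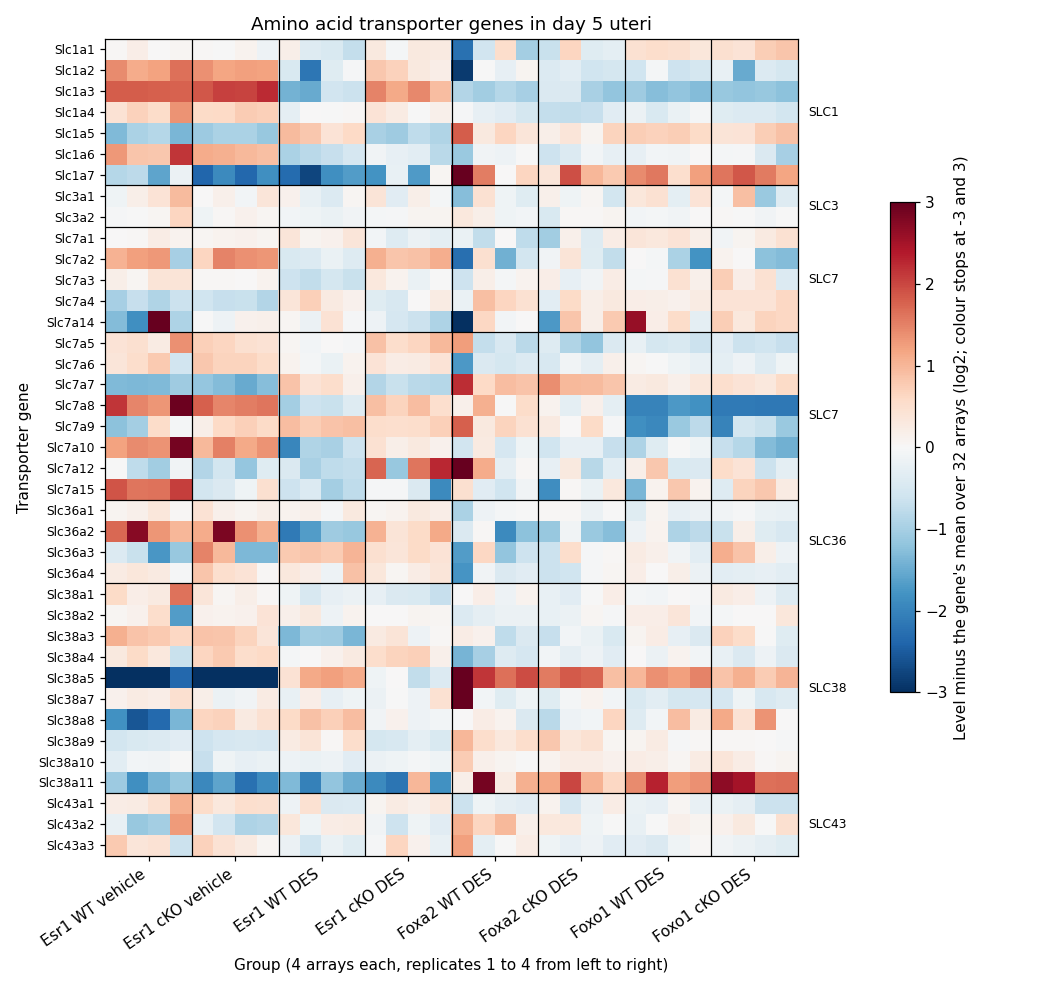
Level of each of the 39 transporter genes on each of the 32 arrays, as the difference from that gene's own mean over all arrays (log2; colour stops at -3 and 3), ordered by family, with 4 arrays per group. Slc38a5 is low on all 8 vehicle arrays and Slc1a3 is high on them; Foxa2 WT DES replicate 1 stands apart in several genes.

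In Esr1 wild-type uteri, the question was which transporters respond to neonatal DES. With DES, 20 of 39 transporter genes changed, 8 higher and 12 lower. Over all genes tested, 51.8% were called, 21.5% higher and 30.3% lower, so the share of transporters called is close to that of genes at large. The 2 groups of 4 arrays did not overlap in 22 of the 39 genes, against 50.5% of all genes. The median change of the transporters was -0.29, against -0.16 for all genes, and single genes ran from -3.19 to 4.08. When arrays were scaled on their medians instead, the median of all genes became 0.09, so small changes depend on the scaling. Of all genes called, 41.5% were higher, against 56.8% with median scaling, where 8 transporters were called higher and 11 lower. Without the 2 arrays that stand apart, 26 transporters were called, 9 higher and 17 lower, with 63.2% of all genes called.

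Slc38a5, a sodium-coupled carrier of glutamine, asparagine and histidine, rose the most. Its level was -1.49, -1.36, -1.40 and -0.43 on the wild-type vehicle arrays and 2.37, 3.07, 3.16 and 3.04 on the wild-type DES arrays. All DES arrays lay more than 2 log2 steps above all vehicle arrays. The difference was 4.08 ± 0.26 (SE, n = 4 per group), 16.9-fold, with an adjusted p of 4.327e-13 in limma. It was 4.33 without the 2 arrays that stand apart.

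Slc1a5, which exchanges glutamine, alanine and serine, was at 2.74, 3.13, 3.22 and 2.71 after vehicle and at 5.01, 4.87, 4.47 and 4.67 after DES. Slc7a7, a light chain that exchanges cationic for neutral amino acids, went from 0.71, 0.68, 0.73 and 0.98 to 2.90, 2.45, 2.57 and 2.20. The groups did not overlap in either gene. Slc1a5 rose by 1.81 ± 0.22, 3.50-fold (adjusted p = 1.206e-07), and Slc7a7 by 1.75 ± 0.22, 3.37-fold (adjusted p = 1.27e-07). Slc7a4, a relative of the cationic transporters whose substrate is not settled, went from -1.76, -1.46, -1.66 and -1.40 to -0.41, -0.05, -0.50 and -0.63, again without overlap, a rise of 1.17 ± 0.20 (adjusted p = 1.379e-05). Slc7a9, the light chain of the kidney cystine transporter, went from -5.66, -5.45, -3.88 and -4.48 to -3.51, -3.70, -3.57 and -3.54. It rose by 1.29 ± 0.35 (adjusted p = 0.00282), and the vehicle arrays spread far more widely than the DES arrays.

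The other 3 genes called higher are less firm. Slc38a8, a glutamine carrier known from the eye, was under the 30th percentile on all vehicle arrays, at -7.74, -8.50, -8.25 and -7.30, and at -5.36, -5.05, -5.20 and -4.99 after DES. Such a vehicle level is only a bound, and against the 30th percentile the rise was at least 1.66-fold (fitted difference 2.80, adjusted p = 9.908e-09). Slc38a9, the lysosomal arginine sensor upstream of mTORC1, went from -1.27, -1.19, -1.15 and -1.06 to -0.48, -0.34, -0.68 and -0.19, a rise of 0.74 ± 0.14 (adjusted p = 7.314e-05). Its 4 kept probes gave differences from -1.19 to 0.74 and their mean fell by 0.11, so the rise is that of its brightest probe. Slc36a3, an SLC36 member known mainly from testis, went from -5.49, -5.75, -6.84 and -6.24 to -4.31, -4.26, -4.32 and -4.07 (difference 1.84, adjusted p = 0.00268), while its other kept probe fell by 2.26.

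By family, 4 of the 7 SLC1 genes fell and 1 rose, 3 of 8 SLC7 light chains fell and 2 rose, 2 of 10 SLC38 genes fell and 3 rose, and 1 of 3 SLC43 genes fell. Of 4 SLC36 genes and of 5 cationic SLC7 transporters, 1 fell and 1 rose in each. Slc1a3, the glutamate and aspartate carrier best known from glia, was at 0.54, 0.53, 0.51 and 0.48 after vehicle and at -2.70, -2.80, -1.86 and -1.94 after DES. The vehicle arrays lay close together and every DES array was more than 2 log2 steps below them. Slc1a3 fell by 2.84 ± 0.18, 7.15-fold (adjusted p = 4.955e-13), and both of its probes fell, by 2.84 and 2.71.

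Slc1a6, a glutamate carrier known from cerebellum, went from 1.31, 0.84, 0.82 and 2.15 to -0.93, -0.80, -0.68 and -0.50, and it fell by 2.01 ± 0.25 (adjusted p = 2.138e-07), or by 1.72 without the 2 arrays that stand apart. Slc1a4, which carries alanine, serine and cysteine, went from -0.26, -0.02, -0.16 and 0.64 to -0.98, -0.68, -0.73 and -0.67. Its fall of 0.82 ± 0.16 (adjusted p = 7.936e-05) became 0.62 without the 2 arrays that stand apart, and its other probe was at 0.09. Slc1a2, the main glutamate carrier of forebrain glia, went from -3.24, -3.53, -3.43 and -2.99 to -5.11, -6.82, -5.01 and -4.68 on its brightest probe (fall of 2.11, adjusted p = 0.000283). On 1 of the 4 DES arrays this probe was under the 30th percentile. The 4 kept probes of Slc1a2 ran from -2.11 to 1.93, and the call was lost for their mean, -0.44 with a limma adjusted p of 0.21.

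Among light chains the 3 that fell were Slc7a8, Slc7a10 and Slc7a15. Slc7a8, a carrier of large and small neutral amino acids that pairs with Slc3a2, was at 3.33, 2.66, 2.51 and 4.14 after vehicle and at 0.18, 0.58, 0.52 and 0.80 after DES. Slc7a10, which pairs with Slc3a2 and carries small neutral amino acids including D-serine, went from -0.96, -0.74, -0.80 and 0.71 to -4.12, -3.07, -3.14 and -2.77. In both genes the highest vehicle value was that of replicate 4, which stands apart, and the other 3 vehicle arrays still lay above every DES array. Slc7a8 fell by 2.64 ± 0.25, 6.25-fold (adjusted p = 8.783e-10), and by 2.32 without the 2 arrays that stand apart. Slc7a10 fell by 2.83 ± 0.30, 7.10-fold (adjusted p = 9.462e-09), and by 2.44 without them. Slc7a15, a light chain gene, went from -3.56, -3.82, -3.80 and -3.37 to -6.05, -5.84, -6.46 and -6.20. It fell by 2.50 ± 0.44 (limma adjusted p = 3.219e-05), with 1 of the 4 DES arrays under the 30th percentile.

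Slc36a2, a proton-coupled carrier of glycine and proline, was at -2.74, -1.75, -3.15 and -3.48 after vehicle and at -6.60, -6.13, -5.54 and -5.61 after DES. The groups lay more than 2 log2 steps apart. The fall of 3.19 ± 0.42, 9.13-fold, was the largest among the transporters (limma adjusted p = 3.658e-07). On 1 of the 4 DES arrays Slc36a2 was under the 30th percentile. Slc38a3, the glutamine carrier of liver and astrocytes, went from -3.05, -3.26, -3.34 and -3.50 to -5.48, -5.18, -5.19 and -5.49, a fall of 2.04 ± 0.22 (adjusted p = 1.558e-08). Slc38a1, a glutamine carrier widely used by growing cells, went from 2.86, 2.49, 2.56 and 3.92 to 2.17, 1.81, 2.04 and 2.13. It fell by 0.92 ± 0.21 (adjusted p = 0.000564), by 0.60 without the 2 arrays that stand apart, and all 6 of its probes were lower, by 0.08 to 2.00. Slc7a3, a cationic carrier, fell by 0.89 ± 0.19 (adjusted p = 0.000312), from between -2.63 and -2.30 to between -3.42 and -3.23. Slc43a1, a carrier of large neutral amino acids, fell by 0.63 ± 0.19 (adjusted p = 0.00745), with overlapping groups, and its call was lost with median scaling.

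The remaining 19 genes were not called. They include both heavy chains. Slc3a2 was at 3.56, 3.57, 3.65 and 4.25 after vehicle and at 3.52, 3.46, 3.39 and 3.49 after DES. The arrays did not overlap, but by a small margin. The difference of -0.29 had a 95% interval of -0.57 to -0.01 and an adjusted p of 0.079, and it was -0.13 without the 2 arrays that stand apart. Slc3a1, the partner of Slc7a9, lay between -5.99 and -4.91 after vehicle and between -6.27 and -5.74 after DES, a difference of -0.46 with an interval of -1.14 to 0.21.

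Slc38a2, the glutamine carrier that rises when cells are short of amino acids, differed by 0.34 with an interval of -0.19 to 0.87. Vehicle replicate 4 was far below the other 3 vehicle arrays, at 1.82 against 3.54 to 4.01, and without it the difference was -0.14 and not called. Its other 3 probes were lower after DES, down to -1.35. Slc7a5, the leucine carrier that pairs with Slc3a2, was at 0.71, 0.77, 0.55 and 1.68 after vehicle and at 0.36, 0.20, 0.30 and 0.27 after DES. Its difference of -0.64 (adjusted p = 0.071) was not called with all arrays. Without the 2 arrays that stand apart the difference was -0.39 and it was called (adjusted p = 0.028), whereas without replicate 4 alone it was not (adjusted p = 0.283). Without both arrays, Slc7a2 (-1.55), Slc43a3 (-0.86), Slc7a6 (-0.57) and Slc1a7 (-1.07) became called lower, and Slc43a2 (0.96) became called higher. Slc1a7 was under the 30th percentile on all arrays of both groups.

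Markers of cell types moved with DES in the same uteri. The summed level of 10 epithelial markers, in multiples of the array's 75th percentile, went from 144 to 248 on wild-type vehicle arrays and from 326 to 390 on wild-type DES arrays, and 9 of the 10 were called higher. Of 6 smooth muscle markers 5 were called lower, with sums of 331 to 545 after vehicle and 215 to 254 after DES. Of 6 endothelial markers 4 were called lower (sums of 16 to 43.4 and of 9.0 to 12.8), and of 6 leukocyte markers 4 were called higher (sums of 2.4 to 8.5 and of 9.74 to 14.8). None of the markers in these 4 lists was under the 30th percentile throughout either group. Of 8 stromal markers 1 was called higher and 2 lower, with sums of 366 to 567 and of 490 to 526. The part of these shifts in the transporter changes was not tested, and fewer cells of a type and less RNA per cell cannot be told apart in whole uteri.

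**Figure D2:**
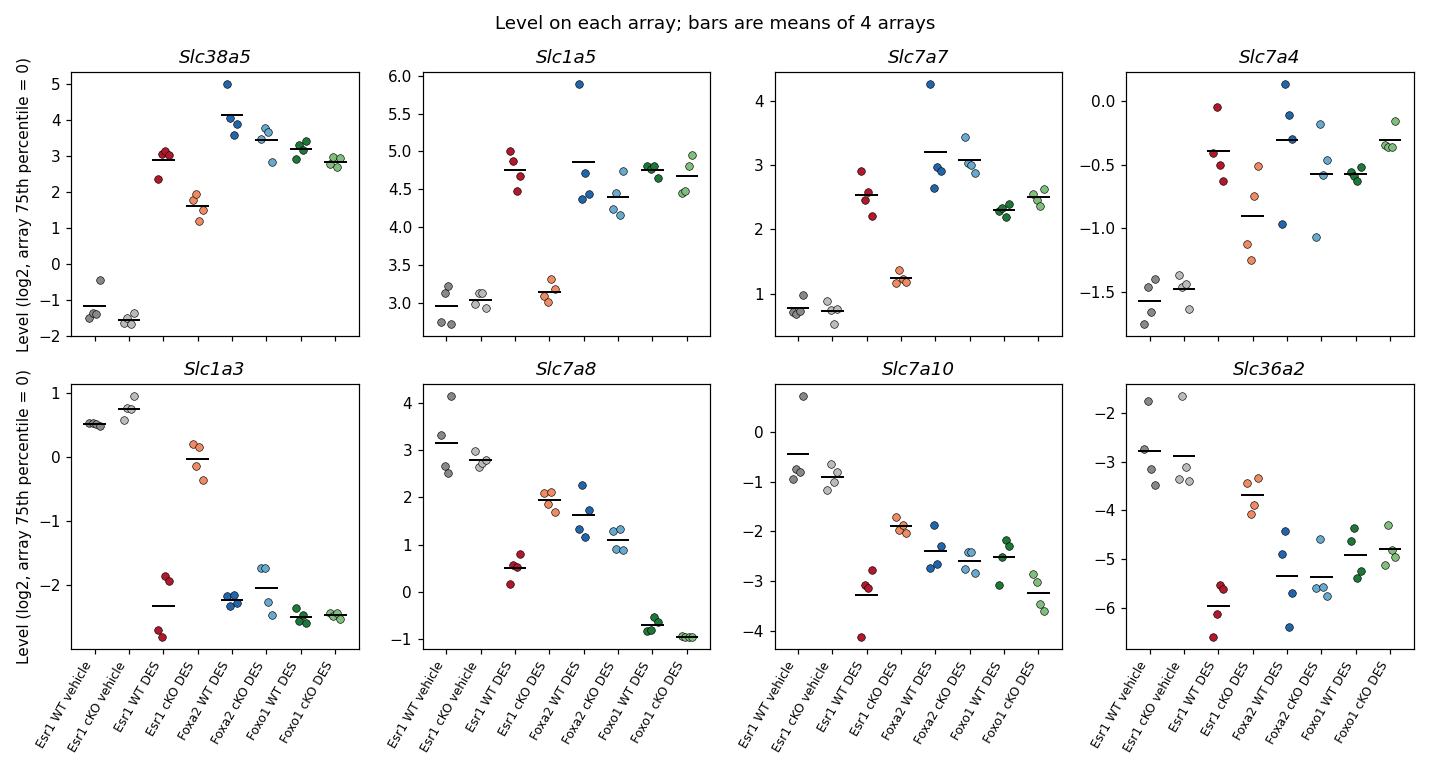
Level (log2, array 75th percentile = 0) of 8 transporter genes on every array of the 8 groups; points are arrays and bars are means of 4 arrays. For Slc1a3 the Esr1 cKO DES arrays lie between -0.36 and 0.21, above every wild-type DES array; for Slc38a5 they lie between 1.20 and 1.94, well above both vehicle groups.

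In Esr1 cKO uteri, the question was what remains of the DES response. With DES, 6 transporter genes changed, 2 higher and 4 lower. Over all genes 8.98% were called, 6.39% higher and 2.58% lower. The groups did not overlap in 16 transporters, against 30.8% of all genes. Without the 2 arrays that stand apart 12 transporters and 20.7% of all genes were called. Slc38a5 was at -1.64, -1.49, -1.68 and -1.37 after vehicle and at 1.79, 1.94, 1.20 and 1.51 after DES. The groups did not overlap, and the rise of 3.16 ± 0.26 was 8.91-fold (adjusted p = 7.415e-10). Slc1a6 went from 1.13, 1.06, 0.97 and 0.91 to -0.10, -0.25, -0.31 and -0.79, a fall of 1.38 ± 0.25 (adjusted p = 0.000362). Slc1a3 went from 0.58, 0.76, 0.74 and 0.95 to 0.21, -0.14, 0.16 and -0.36, a fall of 0.79 ± 0.18 (adjusted p = 0.00411). In both glutamate carriers every DES array lay below every vehicle array.

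Slc7a10 went from -1.17, -0.64, -1.01 and -0.80 to -1.71, -1.98, -1.87 and -2.03, a fall of 0.99 ± 0.30 (adjusted p = 0.0349). Slc7a8 went from 2.98, 2.65, 2.73 and 2.80 to 2.10, 1.85, 2.12 and 1.70, a fall of 0.85 ± 0.25 (adjusted p = 0.0264). Neither gene's groups overlapped, yet the call of Slc7a10 was lost when any of 6 of the 8 arrays was left out in turn, and that of Slc7a8 when any of 5 was. Slc7a12, a light chain gene, was called higher by 1.86 (adjusted p = 0.0497), but its cKO DES arrays lay at -5.92, -8.81, -6.06 and -5.41, 1 of them among the vehicle arrays, and its vehicle group was under the 30th percentile. No fold above 1 could be given for it, and 11 of 18 alternatives lost the call. Only Esr1 cKO DES arrays, all but 1, and Foxa2 WT replicate 1 lay above the 30th percentile for Slc7a12. It thus passed the filter through the group called higher, so its call is no separate support.

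Each of the 20 transporters called in wild-type uteri had a smaller fitted DES change in cKO uteri, and the sign was kept in 18 of them. The cKO change was smaller in 19 of these 20 without the 2 arrays that stand apart, the exception being Slc38a1. The 2 comparisons share no arrays, but the 20 genes were picked by their wild-type change, which favours a smaller change in cKO. How often the same holds over all genes called in wild type was not counted. The changes are drawn side by side in the plot of DES changes by genotype. On the log2 scale, the cKO change of Slc38a5 was 77.4% of the wild-type change, that of Slc1a6 68.8% and that of Slc38a1 67.8%. These shares were 72.9%, 80.5% and 104% without the 2 arrays that stand apart, so their order changed. At the other end stood Slc1a5 at 5.86% and Slc7a9 at 3.8%, or 6.13% and 3.46% without those arrays. Slc7a9 had a cKO vehicle mean of -3.92, against -4.87 in wild-type vehicle and -3.58 in wild-type DES uteri. Its response was not called different between the genotypes. Slc1a5 was at 2.98, 3.13, 3.13 and 2.93 in cKO uteri after vehicle and at 3.09, 3.01, 3.31 and 3.18 after DES, a difference of 0.11 with an interval of -0.35 to 0.56.

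**Figure D3:**
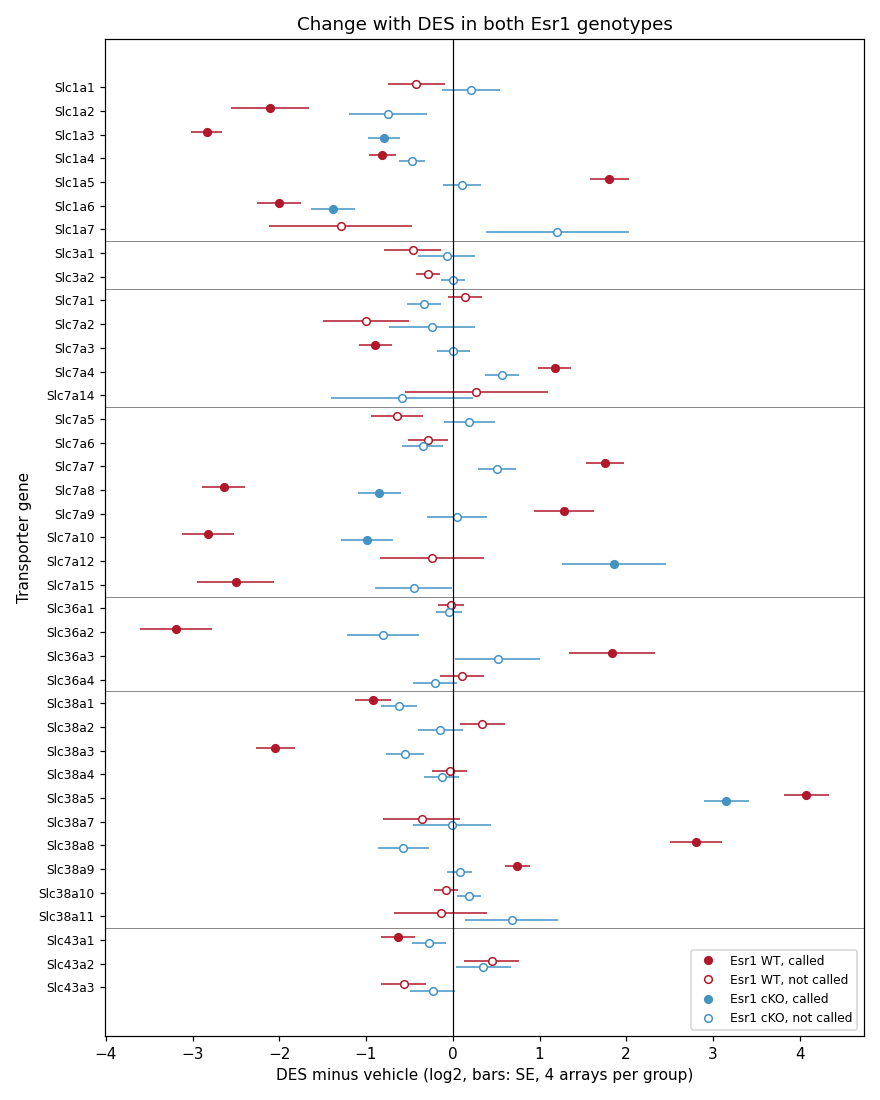
Fitted DES minus vehicle difference (log2) of the 39 transporter genes in Esr1 WT and Esr1 cKO uteri, with SE bars and 4 arrays per group; filled points were called. For each filled wild-type point, the cKO point lies nearer to 0 or on the other side of it.

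The difference between the genotypes in the response to DES was tested as an interaction, and 11 transporters passed it, 7 upward and 4 downward, against 27.3% of all genes, 15.4% upward and 11.9% downward. Of all genes that passed, 56.4% were upward, against 46.1% with median scaling, where 7 transporters passed upward and 6 downward. Without the 2 arrays that stand apart 19 transporters and 42.4% of all genes passed. An upward value here means that the fall with DES was smaller in cKO uteri, or absent as for Slc7a3 (cKO change 0.006). The values were 2.38 for Slc36a2, 2.05 for Slc1a3 and for Slc7a15, 1.84 for Slc7a10, 1.79 for Slc7a8, 1.49 for Slc38a3 and 0.90 for Slc7a3. Slc7a15 was already lower in cKO after vehicle, with a mean of -5.59 against -3.64 in wild type. After DES its means were -6.04 in cKO and -6.14 in wild type, with 1 array of each group under the 30th percentile. The downward values were -1.70 for Slc1a5, -1.25 for Slc7a7, -0.67 for Slc38a9 and -3.37 for Slc38a8. The adjusted p-values of these genes lay between 1.084e-06 for Slc38a8 and 0.0156 for Slc7a15. The call of Slc7a15 was lost with quantile normalization (adjusted p = 0.134), the value of Slc38a9 turned to 0.093 with the mean of its probes, and that of Slc38a8 rests on a vehicle group under the 30th percentile. The interaction of Slc38a5 was -0.92 and was not called (adjusted p = 0.063), and without the 2 arrays that stand apart it was -1.17 and called (adjusted p = 0.0015).

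Without DES the genotypes differed in 2 transporters, 1 higher and 1 lower in cKO, against 7.48% of all genes called, 2.68% higher and 4.79% lower. The groups did not overlap in 4 transporters, against 16% of all genes. Slc7a15 was at -6.00, -5.86, -5.55 and -4.95 in cKO uteri, below the wild-type range of -3.82 to -3.37. It was lower by 1.96 ± 0.44 (adjusted p = 0.00395), and quantile normalization lost the call. Slc38a8 was at -5.29, -5.23, -5.65 and -5.46 in cKO uteri and under the 30th percentile in wild type, at least 1.39-fold higher (adjusted p = 1.37e-06). The vehicle difference of Slc38a5 was -0.37 with an interval of -0.91 to 0.16, and that of Slc1a3 was 0.24 with an interval of -0.13 to 0.62.

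After DES, cKO and wild-type uteri differed in 16 transporters, 10 higher and 6 lower in cKO, against 30.5% of all genes called, 16.6% higher and 13.9% lower. The groups did not overlap in 19 genes, against 47% of all genes. This comparison uses the same wild-type DES arrays as the response above, so it is no second look at those arrays. Slc1a3 was higher in cKO by 2.29 ± 0.18, 4.88-fold (adjusted p = 1.358e-10). Slc36a2, at -3.43, -4.07, -3.90 and -3.32 in cKO, was higher by 2.29 ± 0.42 (adjusted p = 9.519e-05). Slc7a8 was higher by 1.42 ± 0.25 (adjusted p = 5.013e-05) and Slc7a10 by 1.38 ± 0.30 (adjusted p = 0.000709). Slc38a3, at -3.86, -3.75, -4.28 and -4.09 in cKO, was higher by 1.34 ± 0.22 (adjusted p = 3.028e-05). Slc7a3, at -2.37, -2.58, -2.90 and -2.71, was higher by 0.69 ± 0.19 (adjusted p = 0.00642). No array of one genotype reached the range of the other in these 6 genes.

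Lower in cKO were Slc1a5 by 1.61 ± 0.22, 3.05-fold (adjusted p = 1.866e-06), Slc38a5 by 1.297 ± 0.26, 2.46-fold (adjusted p = 0.000297), and Slc7a7, at 1.17, 1.37, 1.24 and 1.18, by 1.29 ± 0.22 (adjusted p = 3.041e-05). Slc38a9 was lower by 0.75 ± 0.14 on its brightest probe (adjusted p = 0.000144), and the mean of its probes lost the call. A further 6 calls were near the threshold, with adjusted p between 0.0332 and 0.0488 for Slc1a2 (1.26), Slc38a8 (-0.83), Slc7a2 (1.33), Slc7a4 (-0.51) and Slc7a5 (0.77), and 0.02 for Slc7a12 (1.83, with WT under the 30th percentile, so that no fold is given). Each of these 6 was lost under at least 5 of 18 or 19 alternatives. The call of Slc7a12 is again no separate support, since it passed the filter mainly through these cKO DES arrays. Of the arginine and lysine carriers, Slc7a2 was at -3.19, -3.42, -3.38 and -3.17 in cKO and between -4.72 and -4.46 in wild type. Slc7a5 was at 1.18, 0.83, 0.95 and 1.26 in cKO, above the wild-type values given before.

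The cKO DES mean lay between the wild-type vehicle and wild-type DES means for 18 of the 20 genes called in wild-type uteri. This held for 19 without the 2 arrays that stand apart, again among genes picked by their wild-type change. The summed epithelial markers were at 182 to 246 in cKO DES uteri, above the 138 to 146 of cKO vehicle uteri. They were below the 326 to 390 of wild-type DES uteri. The wild-type vehicle range was 144 to 248, in a group that includes replicate 4, which stands apart. Smooth muscle markers summed to 279 to 312 in cKO DES uteri and to 215 to 254 in wild-type DES uteri, and endothelial markers to 13.6 to 19.2 and to 9.0 to 12.8. Leukocyte markers summed to 3.96 to 8.56 in cKO DES uteri and to 9.74 to 14.8 in wild-type DES uteri. None of these 4 sums overlapped between the genotypes after DES, and their part in the transporter differences was not tested.

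The Foxa2 and Foxo1 deletions were compared with the WT groups of their own lines, all after DES. No transporter was called for either deletion with limma. Over all genes 2.21% were called for Foxa2, 1.11% higher and 1.1% lower, and 0.222% for Foxo1, 0.181% higher and 0.0408% lower. At an unadjusted p under 0.05 there were 7 transporters for Foxa2, against 18.3% of all genes, and 1 for Foxo1, against 3.78%. The fitted differences ran from -1.34 to 0.75 for Foxa2 and from -0.72 to 0.56 for Foxo1. Arrays of WT and cKO did not overlap in 1 gene for Foxa2 and in 3 genes for Foxo1, against 5.43% and 8.09% of all genes.

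With Foxa2, the gene without overlap was Slc38a4, a carrier of neutral and cationic amino acids known from liver and placenta. Its level was -1.13, -0.72, -0.12 and -0.23 in WT and 0.18, 0.01, 0.13 and -0.07 in cKO. The difference of 0.62 had an interval of 0.19 to 1.04 and an adjusted p of 0.13, and it was 1.03 over replicates 1 and 2 and 0.21 over replicates 3 and 4. Slc38a5 was at 5.01, 4.07, 3.59 and 3.89 in Foxa2 WT and at 3.48, 3.78, 3.67 and 2.84 in Foxa2 cKO. These groups overlap, and the difference of -0.70 had an interval of -1.23 to -0.16 and an adjusted p of 0.17, and it was -0.41 without the 2 arrays that stand apart. The other 5 genes at an unadjusted p under 0.05 were Slc7a6 (0.60), Slc1a4 (-0.33), Slc1a5 (-0.46), Slc7a8 (-0.52) and Slc7a12 (-1.34). Without those arrays Slc7a6 was at 0.29, Slc1a4 at -0.25, Slc1a5 at -0.11, Slc7a8 at -0.61, Slc7a12 at -0.57 and Slc38a4 at 0.42, and none was called.

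With Foxo1, Slc7a8 was at -0.83, -0.81, -0.52 and -0.62 in WT and at -0.93, -0.94, -0.95 and -0.95 in cKO. The arrays did not overlap, and the difference of -0.24 had an interval of -0.75 to 0.26. Slc7a4 was at -0.56, -0.59, -0.63 and -0.52 in WT and at -0.34, -0.36, -0.36 and -0.15 in cKO, a difference of 0.27 with an interval of -0.13 to 0.67. Slc36a4, a carrier of proline and tryptophan, was at -3.02, -3.20, -3.05 and -3.39 in WT and at -3.54, -3.52, -3.47 and -3.54 in cKO, a difference of -0.35 with an interval of -0.87 to 0.17. These 3 separations are small beside the spread of the same genes in the other groups, which limma pools. Slc7a10 alone had an unadjusted p under 0.05 in limma (adjusted p = 1), with a difference of -0.72 that was -0.13 over replicates 1 and 2 and -1.30 over replicates 3 and 4. The replicate numbers were taken to pair the Foxo1 arrays, although the labels state no pairing. All 4 pairs went one way in 11 transporters, against 24.8% of all genes. In Slc38a4 the cKO array was lower by 0.24, 0.25, 0.26 and 0.34, and in Slc38a5 by 0.14, 0.32, 0.48 and 0.47. With the replicate as a block and only the Foxo1 arrays in the fit, neither was called (adjusted p = 0.199 and 0.186), and no other transporter was.

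**Figure D4:**
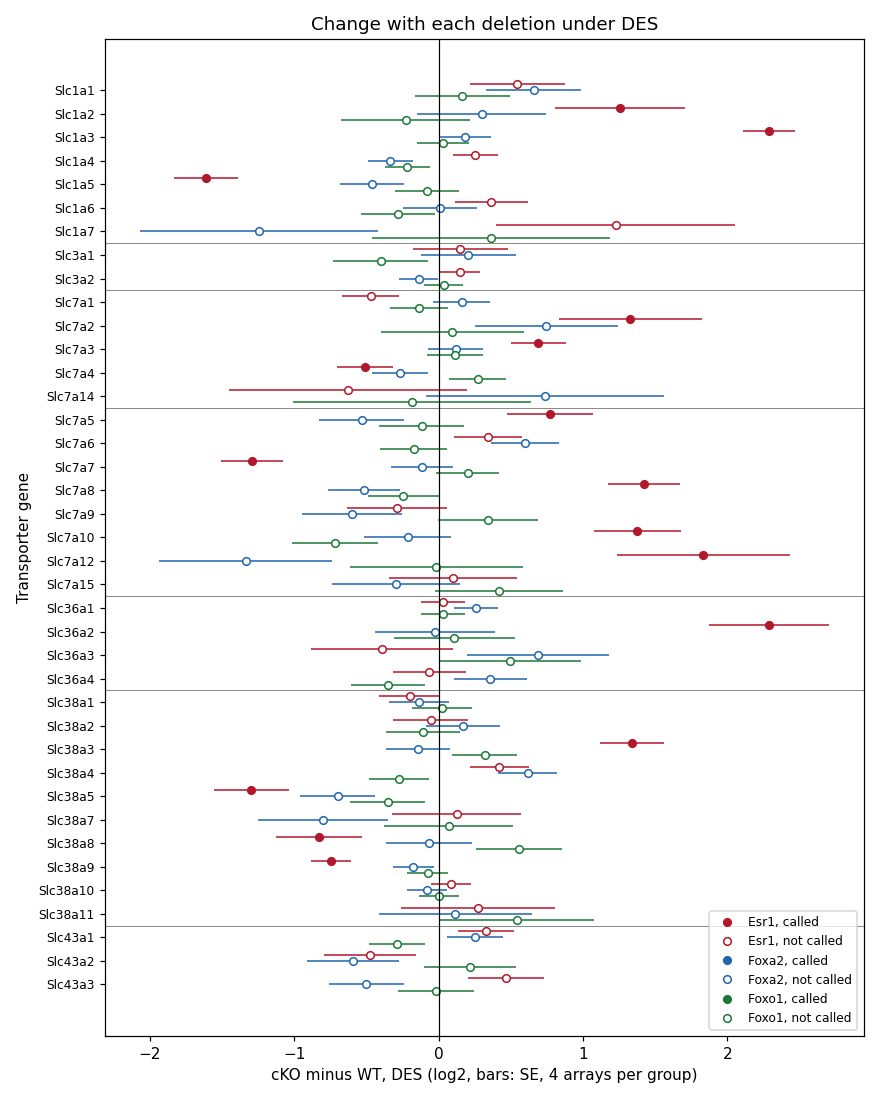
Fitted cKO minus WT difference after DES (log2) of the 39 transporter genes for the Esr1, Foxa2 and Foxo1 deletions, with SE bars and 4 arrays per group; filled points were called. Filled points occur for Esr1 only, where Slc1a3 reaches 2.29 and Slc1a5 -1.61.

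The deletion effects were also tested against each other. The Esr1 effect differed from the Foxa2 effect in 10 transporters, 7 upward and 3 downward, against 18.4% of all genes, 9.19% upward and 9.25% downward. It differed from the Foxo1 effect in 10 transporters, 5 upward and 5 downward, against 19.6% of all genes, 9.48% upward and 10.1% downward. These tests share the Esr1 arrays. Among the 10 against the Foxa2 effect was Slc7a12 (3.17), which passed the filter only through Esr1 cKO DES arrays and Foxa2 WT replicate 1. Slc1a3 differed by 2.10 from the Foxa2 effect (adjusted p = 9.712e-07) and by 2.26 from the Foxo1 effect (adjusted p = 2.327e-07). Its own difference was 0.18 for Foxa2, with an interval of -0.19 to 0.56, and 0.03 for Foxo1, with an interval of -0.34 to 0.41. Slc1a5 differed by -1.15 (adjusted p = 0.00932) and -1.53 (adjusted p = 0.000662), Slc7a7 by -1.18 (adjusted p = 0.00626) and -1.49 (adjusted p = 0.000638), and Slc7a8 by 1.94 (adjusted p = 0.000175) and 1.67 (adjusted p = 0.000843).

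Slc36a2 (2.31 and 2.18), Slc7a10 (1.59 and 2.10), Slc38a3 (1.48 and 1.02) and Slc38a9 (-0.57 and -0.67) also passed both tests. The call of Slc38a9, on its brightest probe, was lost under 18 of 27 alternatives against the Foxa2 effect and under 2 of 27 against the Foxo1 effect, and that of Slc38a3 under 3 of 27 against the Foxo1 effect. Slc38a5 passed neither, with values of -0.60 and -0.94, but without the 2 arrays that stand apart it passed both, with -0.89 (adjusted p = 0.0142) and -0.94 (adjusted p = 0.00652). Without those arrays 15 transporters and 33.8% of all genes passed against the Foxa2 effect, and 19 and 37.4% against the Foxo1 effect. The Foxo1 effect differed from the Foxa2 effect in no transporter by limma, against 0.957% of all genes (0.595% upward and 0.362% downward), with 2 at an unadjusted p under 0.05.

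Wild-type uteri after DES were available in all 3 lines, which shows how far the DES levels of a transporter vary between lines. Array runs were not known here, so any run that differed between lines cannot be told apart from line. Foxa2 WT differed from Esr1 WT uteri in 17 transporters, 10 higher and 7 lower, against 35.3% of all genes, 24.8% higher and 10.5% lower. Foxo1 WT differed in 9, 7 higher and 2 lower, against 35.2% of all genes, 24.9% higher and 10.2% lower. The groups did not overlap in 14 transporters in each comparison, against 27.5% of all genes for Foxa2 WT and 54.4% for Foxo1 WT. Of all genes called, 70.4% were higher in Foxa2 WT and 70.9% in Foxo1 WT, against 57.4% and 53.5% with median scaling, where 7 transporters were higher and 7 lower in Foxa2 WT and 4 higher and 4 lower in Foxo1 WT. Without the 2 arrays that stand apart, 9 were higher and 8 lower in Foxa2 WT, with 49.7% of all genes called, and 9 higher and 5 lower in Foxo1 WT, with 55.7%. Epithelial markers summed to 444 to 513 in Foxa2 WT and 440 to 497 in Foxo1 WT, above the 326 to 390 of Esr1 WT, and their part in these differences was not tested. The 20 transporters called with DES in Esr1 wild-type uteri were placed against the Esr1 wild-type DES and vehicle levels. The mean was nearer the DES level for 18 in Foxa2 WT and 17 in Foxo1 WT. Without the 2 arrays that stand apart these counts were 16 and 17. The genes were picked by their Esr1 wild-type change, and the same counts over all genes called were not made. These counts also rest on the brightest probe of each gene. For Slc1a3 that probe differed from Esr1 WT by 0.10 in Foxa2 WT and -0.17 in Foxo1 WT, but its other probe by 2.7 and 3.9. Kept probes of Slc1a2, Slc1a4, Slc36a3, Slc38a1 and Slc38a9 went both ways in both comparisons.

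For Slc38a5 the order of the DES groups was Foxa2 WT, Foxa2 cKO, Foxo1 WT, Esr1 WT, Foxo1 cKO and Esr1 cKO, with both vehicle groups below. Foxo1 WT arrays, at 2.93, 3.31, 3.17 and 3.41, overlapped with Esr1 WT arrays and with Foxo1 cKO arrays, at 2.79, 2.99, 2.69 and 2.94. Foxa2 WT was above Esr1 WT by 1.23 (adjusted p = 0.000688), and by 0.94 without the 2 arrays that stand apart. Slc7a8 set the lines apart in both directions: 1.33, 2.26, 1.16 and 1.73 in Foxa2 WT was above Esr1 WT by 1.10 (adjusted p = 0.00119), and Foxo1 WT was below it by 1.22 (adjusted p = 0.000336). Slc38a3 was called above Esr1 WT by 1.00 in Foxa2 WT and 1.11 in Foxo1 WT, and Slc7a3 by 0.54 and 0.77. The Esr1 cKO minus WT differences of these genes after DES were 1.34 and 0.69. Slc7a9 was at -6.28, -6.37, -5.55 and -5.22 in Foxo1 WT, lower than in Esr1 WT by 2.28 (adjusted p = 8.853e-06). On 3 of these 4 Foxo1 WT arrays it was under the 30th percentile, so the size of this difference is uncertain.

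Slc1a7, a glutamate carrier of the retina, and Slc38a11, an SLC38 member whose substrate is not settled, were under the 30th percentile on all arrays of Esr1 WT, with and without DES. In the Esr1 line only some cKO DES arrays were above it, too few for the filter. Both genes were therefore tested because of the Foxa2 and Foxo1 lines, and their calls here are no support independent of the filter. In Foxa2 WT, Slc1a7 was at 1.13, -4.21, -5.72 and -5.10, and in Foxo1 WT at -4.32, -4.15, -5.23 and -4.52. Against the 30th percentile it was at least 3.58-fold higher in Foxo1 WT (fitted difference 3.33, adjusted p = 0.00245). In Foxa2 WT it was at least 7.57-fold higher (fitted difference 4.41), and at least 2.61-fold higher (fitted difference 2.87) without the 2 arrays that stand apart, of which replicate 1 is one. Slc38a11 was at -5.12, -4.23, -5.27 and -5.16 in Foxo1 WT, at least 2.73-fold higher (adjusted p = 4.632e-05), and at -6.37, -3.65, -6.29 and -5.48 in Foxa2 WT, at least 1.93-fold higher (adjusted p = 0.00052), or 2.38-fold without those arrays. However, Slc38a11 was under the 30th percentile of its own array on 1 of 4 Foxo1 WT and 2 of 4 Foxa2 WT arrays. These bounds are set against the 30th percentile of the Esr1 WT DES arrays only, so a different floor between lines can enter them. Foxa2 WT replicate 1 also stood apart in Slc38a7, a lysosomal glutamine carrier, at 1.99 against -1.76 to -1.47 on the other 3 arrays.

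Other genes of amino acid handling were counted in 6 lists. In Esr1 wild-type uteri, DES raised 6 and lowered 10 of 28 other amino acid transporters, raised 12 and lowered 11 of 29 genes of amino acid breakdown and interconversion, and raised 10 and lowered 6 of 24 genes of the response to amino acid shortage. It raised 5 and lowered 3 of 34 genes of amino acid sensing by mTORC1, raised 3 and lowered none of 18 cytosolic tRNA synthetases, and raised 3 and lowered none of 8 trafficking partners and ubiquitin ligases of transporters. These counts stand beside the 51.8% of all genes called. Without the arrays that stand apart, 11 sensing genes were called higher and 4 lower, with 63.2% of all genes called. In that setting the tRNA synthetases had 3 higher and 2 lower, and the trafficking genes 3 and 1. Other transporters had 7 and 10, breakdown genes 12 and 11, and shortage genes 10 and 6. The bar plot of the lists gives each share with that of all genes.

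**Figure D5:**
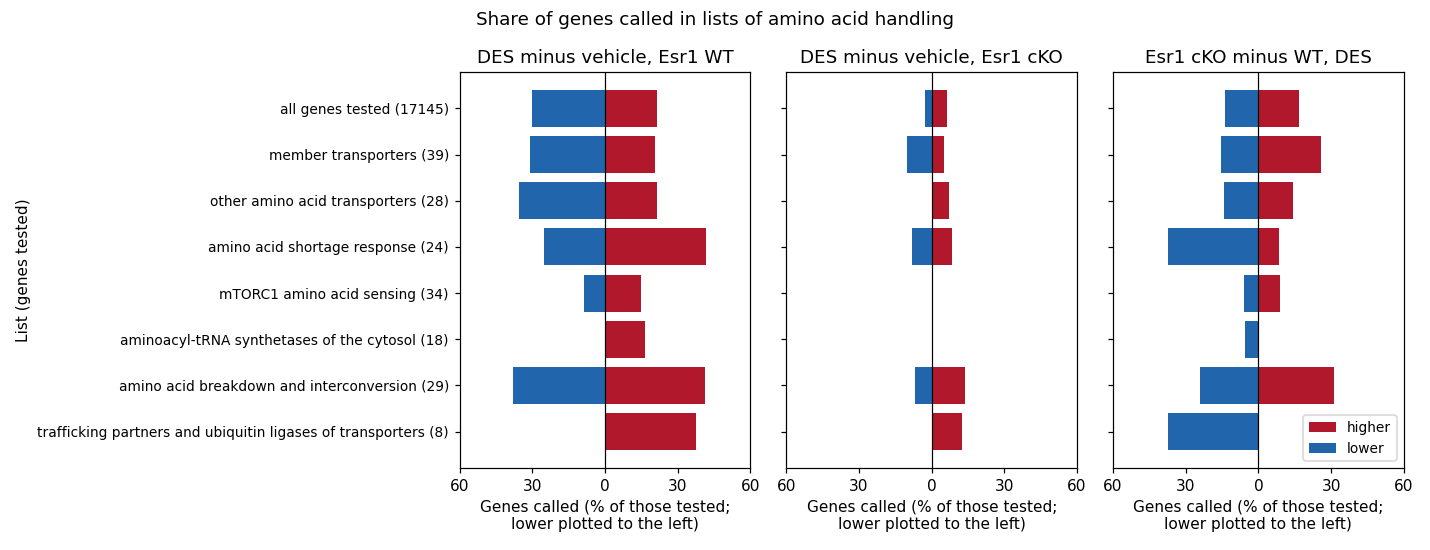
Percent of the genes of each list called higher (right) or lower (left) with DES in Esr1 WT uteri, with DES in Esr1 cKO uteri, and in cKO against WT uteri after DES; the number of genes tested is in brackets and the top bar is all 17145 genes. The 39 transporters have 20 calls in the left panel, 6 in the middle panel and 16 in the right panel.

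Several enzymes of the breakdown list changed. Arg1, which splits arginine into ornithine and urea, rose by 9.87 ± 0.34 with DES in wild-type uteri (adjusted p = 1.01e-18) and by 3.68 in cKO uteri. Its level went from between -5.03 and -4.47 to between 4.72 and 5.38 in wild type, and in cKO it reached between -1.86 and 0.11. Cbs, which makes cystathionine, rose by 5.77, Bcat1, the cytosolic branched-chain aminotransferase, by 3.52, and Ass1, which makes argininosuccinate, by 3.00. Gldc of the glycine cleavage system fell by 2.66 and Prodh, which oxidises proline, by 2.18. After DES all 6 of these enzymes differed between the genotypes, with cKO minus WT differences of -5.93 for Arg1, -1.44 for Cbs, -1.65 for Bcat1, -2.17 for Ass1, 2.43 for Gldc and 2.20 for Prodh.

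In the shortage list the members moved apart. Stc2, a secreted glycoprotein, rose by 5.02 ± 0.20 with DES in wild type and by 2.54 in cKO, Cebpb, a transcription factor, by 1.87, and Trib3, an inhibitor of this response, by 1.33. Phgdh, the entry enzyme of serine synthesis, fell by 2.67 and Gpt2, the mitochondrial alanine aminotransferase, by 1.41. Asns, asparagine synthetase, differed by -0.22 and was not called. Among trafficking genes, the kinase Sgk1 rose by 2.35, the chaperone Bsg by 1.42 and the ubiquitin ligase Nedd4l by 1.10. Among other transporters, the peptide carrier Slc15a3 rose by 1.18 and the broad amino acid carrier Slc6a14 by 1.41, while the vesicular glutamate carrier Slc17a8 fell by 2.84 and the carrier Slc6a13 by 2.14.

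In cKO uteri DES raised 2 of 28 other transporters, 4 of 29 breakdown genes, 2 of 24 shortage genes and 1 of 8 trafficking genes, and lowered 2 breakdown genes and 2 shortage genes, against 8.98% of all genes called. After DES, cKO uteri had 2 shortage genes higher and 9 lower, 9 breakdown genes higher and 7 lower, and 4 other transporters higher and 4 lower than wild type. Of the sensing genes 3 were higher and 2 lower, of the tRNA synthetases 1 was lower and of the trafficking genes 3 were lower, all against 30.5% of all genes called. With both arrays that stand apart left out, 6 sensing genes were higher and 10 lower and 6 tRNA synthetases were lower, against 47.9% of all genes. With the Foxa2 deletion, 3 genes of the 6 lists were called, against 2.21% of all genes, among them the taurine carrier Slc6a6, lower by 0.93, and Shmt1, the cytosolic serine hydroxymethyltransferase, higher by 0.88. The value of Shmt1 was 0.54 and not called without those arrays (adjusted p = 0.0563). With the Foxo1 deletion none was called by limma.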

How the data were processed

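RNA of 32 uteri was measured on single-colour Agilent arrays with Cy3-labelled cRNA, per the labels' protocols. The authors deposited a table of linear intensity values, which Agilent Feature Extraction version 12 produced, per the submitters' processing notes. No label says whether background was corrected. The number of arrays limits the precision.

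Of 45018 probes, 33653 had 1 gene symbol, 56 had several and 11309 had none in the platform annotation, and 33517 symbols were updated through the gene ID. Probes with several symbols were not named. Intensities were set to log2 and each array's 75th percentile was subtracted. A probe was kept when above its array's 30th percentile on at least 4 arrays (36657 probes), and the kept probe with the highest mean stood for its gene (17145 genes). A group with all 4 arrays under the 30th percentile was given a bound, the bright group's mean against the mean 30th percentile. All 32 arrays were fitted as 8 group means with limma 3.58.1 (lmFit and eBayes, R 4.3.3), with Benjamini-Hochberg adjustment and calls at an adjusted p under 0.05. Intervals are 95% intervals of that fit. The steps were tested on simulated data. Scan dates and slides were not used here, so no batch could be fitted.

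Every member of the families may be named, with values on every array for up to 8 members per direction that were called without overlap and for both heavy chains. In the other lists up to 4 called genes per direction are named. Asns was chosen after its values were seen. The members, the lists and the tests were chosen with earlier results of these data known.

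Replicate numbers are shared between groups in the labels. Same-numbered Foxo1 WT and cKO arrays deviated together (correlations of 0.29 to 0.381, each array best matched by its own number). These numbers were therefore taken to pair the Foxo1 arrays, although the labels state no pairing. Why these arrays deviated together was not tested, and a shared run cannot be told from a pairing. In Foxa2 the correlations were 0.00222 to 0.46 and in the Esr1 comparisons -0.107 to 0.13, so the numbers were not taken to pair those arrays.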

Additional observations from a re-analysis of the deposited data

Results flagged for a closer look

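Of 312 sets of 4 arrays (39 genes in 8 groups), 26 held an array whose gap to its neighbour, as a share of the set's range, was over Dixon's 95% critical value, a level that chance gives in about 1 in 20 sets. Foxa2 WT replicate 1 held 6 of them: Slc38a7 at 1.99, Slc7a5 at 1.55, Slc1a6 at -1.12, Slc36a1 at -1.85, Slc7a6 at -2.77 and Slc1a2 at -7.53. Esr1 WT vehicle replicate 4 held 5: Slc3a2 at 4.25, Slc7a7 at 0.98, Slc7a10 at 0.71, Slc38a5 at -0.43 and Slc7a2 at -5.25. These are also the arrays with the highest and the lowest 75th percentile.

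The other 15 were spread over 14 arrays. In the Esr1 cKO vehicle group they were Slc1a2 at -3.27 and Slc38a9 at -1.35 (replicate 1), Slc36a2 at -1.65 (replicate 2) and Slc38a2 at 3.90 (replicate 4). In the Esr1 DES groups they were Slc38a5 at 2.37 (WT replicate 1), and in cKO Slc1a1 at 0.77 (replicate 2), Slc38a11 at -5.55 (replicate 3) and Slc7a9 at -3.73 (replicate 4). In the Foxa2 cKO group they were Slc3a2 at 3.14 (replicate 1), Slc36a2 at -4.58 (replicate 2) and Slc1a4 at -1.04 (replicate 4). In the Foxo1 groups they were Slc38a11 at -4.23 (WT replicate 2) and Slc3a1 at -6.15 (WT replicate 3), and in cKO Slc7a8 at -0.93 (replicate 1) and Slc7a4 at -0.15 (replicate 4).

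The DES change differed between the Esr1 genotypes, by the interaction test in limma, in 11 genes. As the cKO change minus the wild-type change, the values were 2.05 for Slc1a3, -1.70 for Slc1a5, 2.38 for Slc36a2, 1.49 for Slc38a3, -3.37 for Slc38a8, -0.67 for Slc38a9, 1.84 for Slc7a10, 2.05 for Slc7a15, 0.90 for Slc7a3, -1.25 for Slc7a7 and 1.79 for Slc7a8.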

How the results depend on the processing

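Over all comparisons and alternatives, 10188 values of single transporters were recomputed: 9735 stayed on their side of the threshold, of which 443 changed sign and were called in neither setting, 206 lost a call, 235 gained one and 12 reversed. With the mean of a gene's probes, the values that reversed were, with DES in Esr1 WT, Slc36a1 0.92, Slc36a3 -0.21, Slc38a2 -0.63, Slc38a9 -0.11 and Slc7a14 -1.70; in the interaction, Slc38a9 0.093; and in Foxo1 WT against Esr1 WT, Slc1a3 1.87. In Foxa2 WT against Esr1 WT, Slc7a1 turned to 0.25 with the mean of probes, Slc1a5 to -0.54 with quantile normalization and -0.29 with array weights, Slc38a10 to -0.035 with quantile normalization, and Slc1a2 to 0.73 with array weights.

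Counts of called transporters moved as follows, the alternatives without the 2 arrays that stand apart having been chosen after seeing the data. With DES in Esr1 cKO (6) they were 10 with quantile normalization, 17 with array weights, 16 with only the compared groups fitted and 12 without the 2 arrays that stand apart, and 3 to 6 without single replicates. Over all genes the calls moved too, from 1539 to 1861, 5487, 4304 and 3545 in these 4 settings. In the interaction (11) they were 19 with array weights, with only the compared groups and without those 2 arrays, while the calls over all genes went from 4687 to 8377, 6023 and 7266. For Esr1 cKO against WT after vehicle (2) quantile normalization gave 1 and a filter at the array median 0. After DES (16), leaving out single replicates gave 10 to 13. Array weights and only the compared groups gave 23 each, and leaving out those 2 arrays gave 20. The calls over all genes went from 5224 to 8986, 8411 and 8221 in these settings. For Foxa2 (0) array weights gave 3 (all genes 379 and 2918), and leaving out WT replicate 3 gave 2 (Slc1a1 1.11 and Slc38a4 0.76), with 0 for the others. Esr1 against Foxa2 effects (10) gave 17 with array weights and 5 with only the compared groups (all genes 3162, then 7472 and 2393); Esr1 against Foxo1 effects (10) gave 19, 18 and, without those 2 arrays, 19 (all genes 3365, then 7248, 6803 and 6406). Foxo1 against Foxa2 effects (0) gave 3 with array weights and 1 without those 2 arrays (all genes 164, then 1987 and 458). Foxa2 WT against Esr1 WT (17) gave 4 with only the compared groups (all genes 6048 and 1924); Foxo1 WT against Esr1 WT (9) gave 5 with the stricter filter, 16 with array weights, 14 with only the compared groups and 14 without those 2 arrays (all genes 6029, then 4081, 10412, 9819 and 9543). The cause was not tested, beyond fewer genes under the stricter filter and fewer arrays where groups were left out.

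The replicate block changed no count by over 1.5 times: 20 with DES in Esr1 WT, 7 in Esr1 cKO, and 0 for Foxa2 and for Foxo1, also with only the Foxo1 arrays fitted. Replicates 1 and 2 against 3 and 4 as a block gave 0 for both deletions. With median scaling, 56.8% of all genes called with DES in Esr1 WT were higher, against 41.5%, and 53.8% against 81.6% for Foxo1. A group with all 4 arrays under the 30th percentile carries a bound only. Fitted differences of groups with fewer such arrays were given without a bound.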
